A study of Mus musculus with 12 samples.

Results

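The genes described here were the 33 genes of fibroblast growth factor (FGF) signaling in the list used: 19 ligands and genes of the ligand family, 5 receptors, 2 co-receptors, 2 adaptors and 5 feedback inhibitors. They were chosen by name and make up 34 of the 22380 protein-coding gene records of GENCODE vM1 on mouse build mm9, because Fgfr1 has 2 records. For each record, the reads at CpG cytosines from 2000 bp upstream of the start to the end of the gene were pooled in each sample. The promoter (1000 bp on either side of the start) and the body (from 1000 bp downstream of the start to the end of the gene) were kept apart. The methylation level of a region is the percent of its reads that call a cytosine methylated, and a region was tested where it had 20 or more reads in each of the 12 samples.

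DNA methylation was measured by enhanced reduced representation bisulfite sequencing (ERRBS) in oral soft tissue of female B6C3F1/J mice, which were 8 weeks old at the start and on AIN-93M diet. In ERRBS the DNA is cut by MspI at CCGG, short fragments are kept, and bisulfite turns unmethylated but not methylated cytosine into a base read as T. There were 4 groups of 3 samples. The DMSO group received the vehicle. The DBP group received the carcinogen dibenzo[a,l]pyrene (DBP, also called dibenzo[def,p]chrysene), a polycyclic aromatic hydrocarbon, inside the mouth for 5 weeks, with 3 doses of 24 nmol in each week. Labels of the other 2 groups name the same DBP treatment together with a chemopreventive agent that they do not identify (DBP plus agent) or with BR extract (DBP plus BR extract), and give no dose for either. Tissue was taken 48 h after the last dose, and buccal mucosa, mouth floor and the soft tissue on the hard palate were combined for DNA. Nothing states whether a sample was 1 mouse. P-values by edgeR and limma set a difference against the spread between these samples, which may be partly technical. Those by logistic regression take reads as independent and leave that spread out. Because the tissue is a mixture, a change in cell types and a change within cells would look alike.

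FGF ligands are secreted proteins that bind tyrosine kinase receptors on neighboring or distant cells, with heparan sulfate or a Klotho protein as co-receptor. The activated receptor phosphorylates the adaptors Frs2 and Frs3, which turn on the Ras and ERK pathway, and Sprouty (Spry) and Spred proteins, many of them induced by the same pathway, dampen it. In oral tissue this signaling passes between mesenchyme and epithelium and is known for its part in palate, tooth and salivary gland formation and in the repair of mucosa.

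The promoter stretches of 200 bases below show the main contrast in these data, which lay between genes. Each is the stretch within 1000 bp of the start with the most CpGs read in all 12 samples and at most 30 annotated UTR bases, was taken from the mm9 genome on the strand of the gene, and capitals mark the CpGs that had a read in at least 1 sample. Fgf4, a ligand required in the early embryo, was dense in CpGs and nearly unmethylated. Fgfr1 was nearly unmethylated near the start of its first-listed transcript and methylated near the start of its longer gene record, 5138 bp upstream. Klb and Fgf6 were methylated, at levels that varied between samples. Only 5 of the 7 Klb CpGs and 1 of the 12 Fgf6 CpGs were read in all 12 samples, so the samples pool different CpGs.
Fgf4, chr7:152047573-152047772, plus strand, 19 CpGs with reads, 1.92% to 6.47% methylated in the 12 samples: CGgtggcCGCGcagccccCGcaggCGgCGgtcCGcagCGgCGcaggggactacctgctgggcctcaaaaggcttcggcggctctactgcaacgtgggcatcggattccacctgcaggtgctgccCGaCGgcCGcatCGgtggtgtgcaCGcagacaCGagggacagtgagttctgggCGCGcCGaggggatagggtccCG
Fgfr1, first-listed transcript, chr8:26630008-26630207, plus strand, 23 CpGs with reads, at most 8.82% methylated in any of the 12 samples: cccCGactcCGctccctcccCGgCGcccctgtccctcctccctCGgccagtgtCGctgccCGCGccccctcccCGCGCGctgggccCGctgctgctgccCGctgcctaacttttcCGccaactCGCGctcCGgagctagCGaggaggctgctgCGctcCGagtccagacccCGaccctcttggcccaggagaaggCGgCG
Fgfr1, longer gene record, chr8:26624389-26624588, plus strand, 6 CpGs with reads, 53.3% to 92.6% methylated in the 5 samples with 20 reads: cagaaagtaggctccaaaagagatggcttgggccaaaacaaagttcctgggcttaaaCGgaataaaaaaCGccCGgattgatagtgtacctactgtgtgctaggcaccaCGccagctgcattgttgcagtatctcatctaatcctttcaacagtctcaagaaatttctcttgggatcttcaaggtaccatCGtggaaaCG
Klb, chr5:65739605-65739804, plus strand, 7 CpGs with reads, 18.8% to 70.7% methylated in the 9 samples with 20 reads: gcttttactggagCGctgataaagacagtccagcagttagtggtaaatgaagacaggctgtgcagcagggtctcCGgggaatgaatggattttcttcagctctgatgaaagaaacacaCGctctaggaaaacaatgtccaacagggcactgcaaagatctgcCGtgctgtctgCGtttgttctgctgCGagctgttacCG
Fgf6, chr6:126965574-126965773, plus strand, 12 CpGs with reads, 51.9% to 97.1% methylated in the 8 samples with 20 reads: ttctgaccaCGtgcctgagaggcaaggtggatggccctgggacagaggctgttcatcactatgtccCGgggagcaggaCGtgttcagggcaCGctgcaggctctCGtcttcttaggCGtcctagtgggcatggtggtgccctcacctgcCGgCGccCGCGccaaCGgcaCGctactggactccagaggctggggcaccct

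The 12 samples held between 3287367 and 78889043 CpG calls. The 6 DMSO and DBP samples had 3287367 to 7974299 calls and a median of 2 or 3 reads per covered cytosine, and the 6 samples with agent or BR extract had 16908728 to 78889043 calls and a median of 5 to 7. Depth and these treatments therefore cannot be told apart in the comparisons of DBP plus agent or DBP plus BR extract with DBP. Sample 1 of DBP plus BR extract was the deepest and had the lowest share of methylated calls, 29.3%, with 30.7% to 41.3% in the others. The share of calls in promoters ran from 36.7% to 49.2% and also differed between samples of 1 group, from 38.3% to 49.2% within DBP plus BR extract. Methylation does not measure expression, but as a check of the tissue, promoters of marker genes were read with all samples pooled. Of 9 squamous epithelium markers 5 had 20 reads in total. Epcam was at 5.03% and Cdh1 at 12.7%, and 3 were over 50%: Krt5 at 54.4%, Krt13 at 82.6% and Krt4 at 88.7%. Of 7 skeletal muscle markers 6 did, from Des at 10.9% to Myh4 at 56.6%. The 3 fibroblast markers ran from Pdgfra at 4.37% to Col1a1 at 62.8%. Of 4 blood cell markers 3 did, at 76.2% to 88.9%, and of 3 hepatocyte markers 0. Trp63, Krt14 and Ptprc had 1, 12 and 0 reads, and squamous markers were both low and high, so the labelled tissue could be checked only in part.

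The promoters of the FGF genes were for the most part unmethylated in all 4 groups, and no difference between groups passed the test against the spread between samples. Of the 34 records, 21 had 20 reads in every sample, and their median level over the 12 samples was 6.05%, against 5.93% over all 10508 promoters tested. In 9 of the 21 the level was under 10% in every sample, and in 18 it was under 20%. At the starts of the first-listed transcripts 23 genes could be tested, with a median level of 6.1%, and 9 were under 10% in every sample. Fgf20 and Fgfr2 were under 10% in every sample at the start of the record but not at that of the first-listed transcript. Klb was the only one of the 21 that lay between 20% and 80% in every sample, and none stayed above 50%. The 21 tested promoters had a median of 122 CpGs, and the 13 that could not be tested a median of 40, compared with 97 and 25 among all promoters tested and not tested. CCGG, which reads the same on both strands, is found in 86.9% of the 22380 promoters of this length and in 33 of the 34 here; the start of the Fgf10 record has none and had no read.

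**Figure D1:**
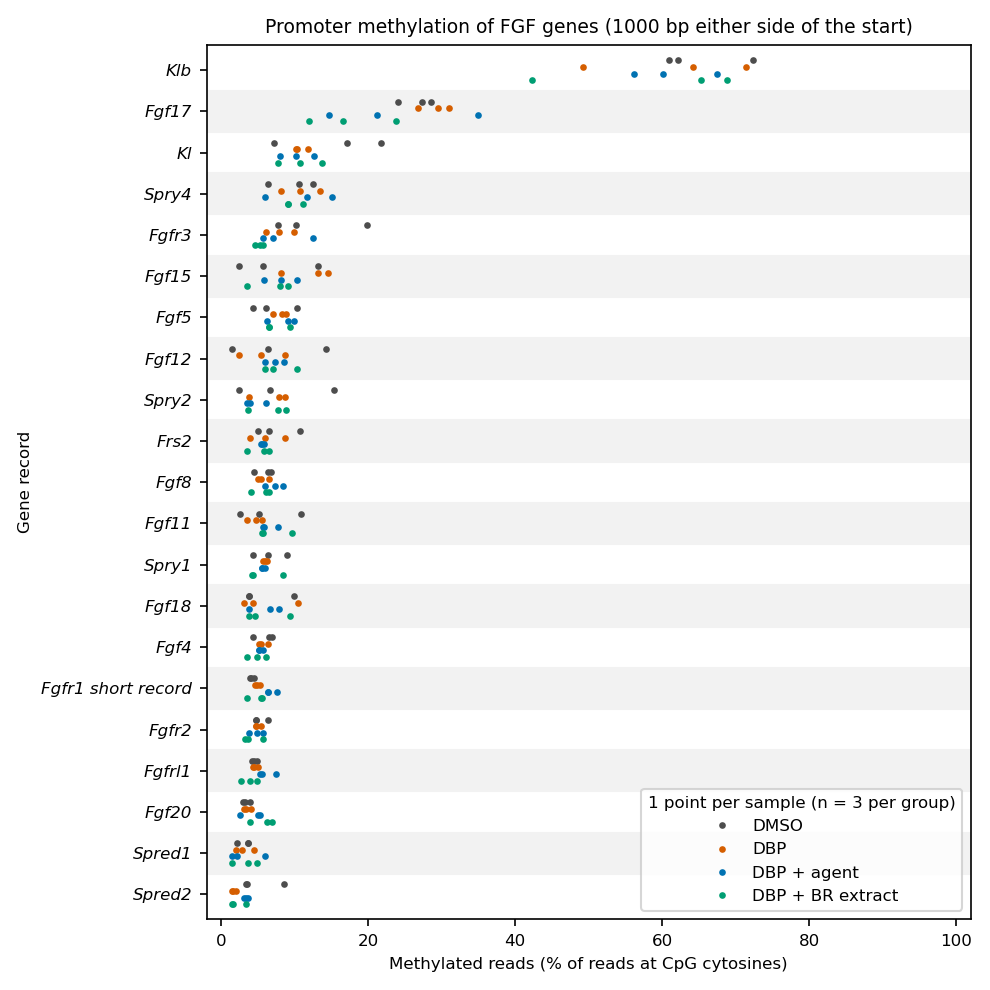
Promoter methylation level (percent of reads at CpG cytosines, horizontal axis) of the 21 gene records with 20 reads in all 12 samples, 1 point per sample, colored by group. Klb lies at 42.3% to 72.3% and Fgf17 at 11.9% to 34.9%, and the colors overlap in nearly every row.

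Among the ligands, Fgf4, Fgf8 and, at the start of its record, Fgf20 were under 10% in every sample. Fgf8, which patterns the face and limbs, ranged from 4.03% to 8.39%. In Fgf5, which ends the growth phase of hair, the promoter stood at 6.01%, 10.3% and 4.35% in DMSO, 7.01%, 8.19% and 8.79% in DBP, 9.86%, 9.07% and 6.2% in DBP plus agent, and 6.52%, 6.47% and 9.38% in DBP plus BR extract. Levels of the 4 groups overlapped. Fgf18, a ligand of cartilage and bone, stood at 9.91%, 3.76% and 3.7% in DMSO, 10.4%, 3.14% and 4.28% in DBP, 7.78%, 3.8% and 6.67% in DBP plus agent, and 3.79%, 9.3% and 4.58% in DBP plus BR extract. The groups overlapped, with the lowest and the highest value both in DBP. Fgf17, of the same subfamily as Fgf8 and Fgf18, was the most methylated ligand promoter tested, at 24%, 28.6% and 27.3% in DMSO, 26.7%, 31% and 29.5% in DBP, 34.9%, 21.2% and 14.7% in DBP plus agent, and 11.9%, 23.8% and 16.5% in DBP plus BR extract. All 3 DBP plus BR extract samples were below all DMSO and DBP samples, while the DBP plus agent samples spanned both. The mean of DBP plus BR extract was 11.7 points under that of DBP (17.4% ± 6.04 and 29.1% ± 2.18, SD, n = 3), with an unadjusted p of 0.0995 and an adjusted p of 1 by edgeR. These values rest on 22 to 758 reads.

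The endocrine ligand Fgf15, the mouse counterpart of human FGF19 and a regulator of bile acid synthesis, stood at 13.1%, 5.66% and 2.38% in DMSO, 8.06%, 14.5% and 13.2% in DBP, 8.14%, 5.77% and 10.3% in DBP plus agent, and 9.04%, 3.53% and 7.94% in DBP plus BR extract. Its lowest and highest values lay in DMSO and DBP, and the groups overlapped. The intracellular family members Fgf11 and Fgf12, which bind sodium channels and do not activate FGF receptors, were low. For Fgf11 the levels were 5.12%, 2.5% and 10.8% in DMSO, 4.69%, 5.49% and 3.52% in DBP, 7.75%, 5.81% and 5.73% in DBP plus agent, and 5.69%, 9.64% and 5.53% in DBP plus BR extract. Those of Fgf12 were 6.35%, 1.49% and 14.3% in DMSO, 2.34%, 5.38% and 8.61% in DBP, 7.29%, 8.57% and 6% in DBP plus agent, and 7.08%, 5.9% and 10.3% in DBP plus BR extract. In both genes DMSO sample 3, the shallowest library, was the highest of all 12. At the start of the Fgf20 record the levels were 3.19%, 3.93% and 2.91% in DMSO, 4.01%, 3.32% and 3.07% in DBP, 5.26%, 2.48% and 5.03% in DBP plus agent, and 3.91%, 6.89% and 6.21% in DBP plus BR extract. DBP plus BR extract had a mean of 5.67% and DBP of 3.47%, the smallest p of the 21 promoters in this comparison (0.0623, adjusted p of 1 by edgeR). That start lies 873 bp from the start of Efha2, and at the start of the first-listed Fgf20 transcript, 21378 bp downstream, the difference had the opposite sign (log2 odds ratio -0.18, p of 0.726 by edgeR). Within 500 bp of the start of the record the log2 odds ratio was 0.21, compared with 0.71 over the promoter.

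Fgf6 and Fgf1 were methylated but could not be tested. Fgf6, expressed in developing muscle, ranged from 52.4% to 90.7% on 16 to 473 reads, and Fgf1 from 25% to 69.5% on 12 to 265 reads. Fgf22 reached at most 11.8%. For Fgf7 (keratinocyte growth factor), Fgf14, Fgf21 and Fgf23 no sample exceeded 66 reads, and Fgf2 and Fgf9 had samples with 0 and 9 reads.

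Among the receptors, Fgfrl1, which has no kinase domain, stood at 4.86%, 4.39% and 4.14% in DMSO, 4.24%, 4.5% and 5% in DBP, 7.41%, 5.53% and 5.21% in DBP plus agent, and 4.8%, 3.85% and 2.66% in DBP plus BR extract. Fgfr1 at its shorter record, which starts 3 bp from its first-listed transcript, stood at 3.93%, 4.08% and 4.44% in DMSO, 4.9%, 4.58% and 5.25% in DBP, 6.39%, 6.38% and 7.61% in DBP plus agent, and 5.44%, 3.47% and 5.53% in DBP plus BR extract. All 3 DBP plus agent samples lay above all DBP samples at both genes. The differences of means were 1.47 and 1.89 points, with unadjusted p of 0.211 and 0.182 and adjusted p of 1 by edgeR. Fgfr3, a receptor known for restraining bone growth, was at 7.73%, 10.2% and 19.8% in DMSO, 9.85%, 6.14% and 7.8% in DBP, 7.06%, 5.71% and 12.5% in DBP plus agent, and 4.54%, 5.67% and 5.32% in DBP plus BR extract. Sample 3 of DMSO was the highest, and the DBP plus BR extract samples were all under the DBP samples, with means of 5.18% ± 0.58 and 7.93% ± 1.86 (SD, n = 3; edgeR p of 0.128, adjusted p of 1). The start of the longer Fgfr1 record was at 73% to 92.9%, but on as few as 14 reads. Fgfr4, whose best known role is in liver, ranged from 3.19% to 16.7% and had as few as 12 reads.

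The Klotho co-receptors differed from each other. Klb (beta-Klotho), the co-receptor of Fgf15 and Fgf21, had 62.2%, 60.9% and 72.3% in DMSO, 71.4%, 64.2% and 49.2% in DBP, 67.5%, 56.1% and 60.1% in DBP plus agent, and 42.3%, 65.3% and 68.8% in DBP plus BR extract. Kl (alpha-Klotho), the co-receptor of Fgf23, had 7.2%, 17.1% and 21.7% in DMSO, 11.8%, 10.3% and 10.2% in DBP, 10.2%, 8% and 12.6% in DBP plus agent, and 7.75%, 13.7% and 10.7% in DBP plus BR extract. At Klb the groups overlapped, and at Kl the highest values were those of DMSO samples 2 and 3. Klb had 44 CpGs in its promoter and Kl 127. Of the adaptors, Frs2 was at 6.45%, 4.96% and 10.7% in DMSO, 5.88%, 8.61% and 3.95% in DBP, 5.46%, 5.75% and 5.53% in DBP plus agent, and 5.8%, 3.51% and 6.55% in DBP plus BR extract, with DMSO sample 3 again highest, and Frs3 had a sample with 6 reads.

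All 5 feedback inhibitors could be tested. Spred1 ranged from 1.46% to 5.91% and Spry1 from 4.22% to 8.97%. Spred2, which holds back Raf activation, stood at 3.49%, 3.39% and 8.57% in DMSO, 1.46%, 1.63% and 1.98% in DBP, 3.57%, 3.12% and 3.35% in DBP plus agent, and 3.34%, 1.42% and 1.55% in DBP plus BR extract. All 3 DBP samples were below all DMSO and all DBP plus agent samples, and the DBP plus BR extract samples fell on both sides. The means were 1.69% ± 0.264 in DBP and 5.15% ± 2.96 in DMSO (SD, n = 3), a log2 odds ratio of -1.61 with p of 0.00802 and adjusted p of 1 by edgeR. At the 6 cytosines of this promoter that were read in all 12 samples, the DMSO samples had 2.75%, 0% (of 34 reads, which allows up to 8.82%) and 2.5%, the DBP samples had 1.34%, 1.18% and 1.99%, and p was 0.403. Without DMSO sample 3, p over the whole promoter was 0.104 by edgeR. Spred2 was also the smallest p for DBP plus agent versus DBP (0.0613, means 3.35% and 1.69%), a difference that changed sign at those 6 cytosines.

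Spry2 was at 6.67%, 2.4% and 15.3% in DMSO, 7.79%, 8.68% and 3.77% in DBP, 6.03%, 3.89% and 3.49% in DBP plus agent, and 3.58%, 8.75% and 7.66% in DBP plus BR extract. Both the lowest and the highest value were in DMSO. Spry4 was at 6.35%, 12.5% and 10.5% in DMSO, 8.12%, 13.4% and 10.7% in DBP, 15.1%, 11.6% and 5.92% in DBP plus agent, and 9.03%, 9.09% and 11.1% in DBP plus BR extract, and its groups overlapped. The Spry4 start lies 266 bp from that of another gene, 9630014M24Rik.

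No promoter of the 21 passed an adjusted p of 0.05 in any of the 4 edgeR tests. Over all 10508 promoters 0 passed, which is 0% in each test, so the count says nothing particular of FGF genes. At an unadjusted p under 0.05 across the 4 groups there was 1 of 21 (Spred2), against 380 of 10508 or 3.62%. For DBP versus DMSO it was 1 of 21 (Spred2), against 318 or 3.03%. For DBP plus agent versus DBP there were 0 of 21, against 223 or 2.12%, and for DBP plus BR extract versus DBP 0 of 21, against 405 or 3.85%. A limma test on log2 ratios also called 0 promoters. A logistic regression that takes reads as independent and leaves out the spread between samples called 15 of the 21 across the groups. It called 1 for DBP versus DMSO (Spred2), 0 for DBP plus agent and 5 for DBP plus BR extract versus DBP. In the same order it called 6553, 392, 1072 and 2483 of all 10508 promoters, and whether the 21 differ from that was not tested. The median SD within groups was 2.06 points over the 21 promoters and 2.08 over all.

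The bodies of the FGF genes differed far more between genes than between groups. Of the 34 records 23 could be tested, with a median level of 39.1%, whereas the median of all 8845 bodies tested was 72.3%. In 8 of the 23 (Fgf1, Fgf14, Fgf22, Fgfr4, Frs2, Kl, Klb and Spry4) the level was above 50% in every sample. The gene model mattered here. Over the bodies of the first-listed transcripts 21 genes could be tested, with a median of 55.4%. Of these 10 were above 50% in every sample, Fgf2 and Fgfr1 among them. The median over all genes was not taken for that model. The record bodies of Fgf8, Fgf10, Fgf20 and Spry2 were under 20% in every sample. Those of Fgf10 and Fgf20 include the start of the first-listed transcript, 44908 and 21378 bp downstream of the start of the record. For both genes the body of the first-listed transcript had too few reads to be tested. The median SD within groups was 5.19 points over the 23 record bodies, and 5.44 over all bodies.

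**Figure D2:**
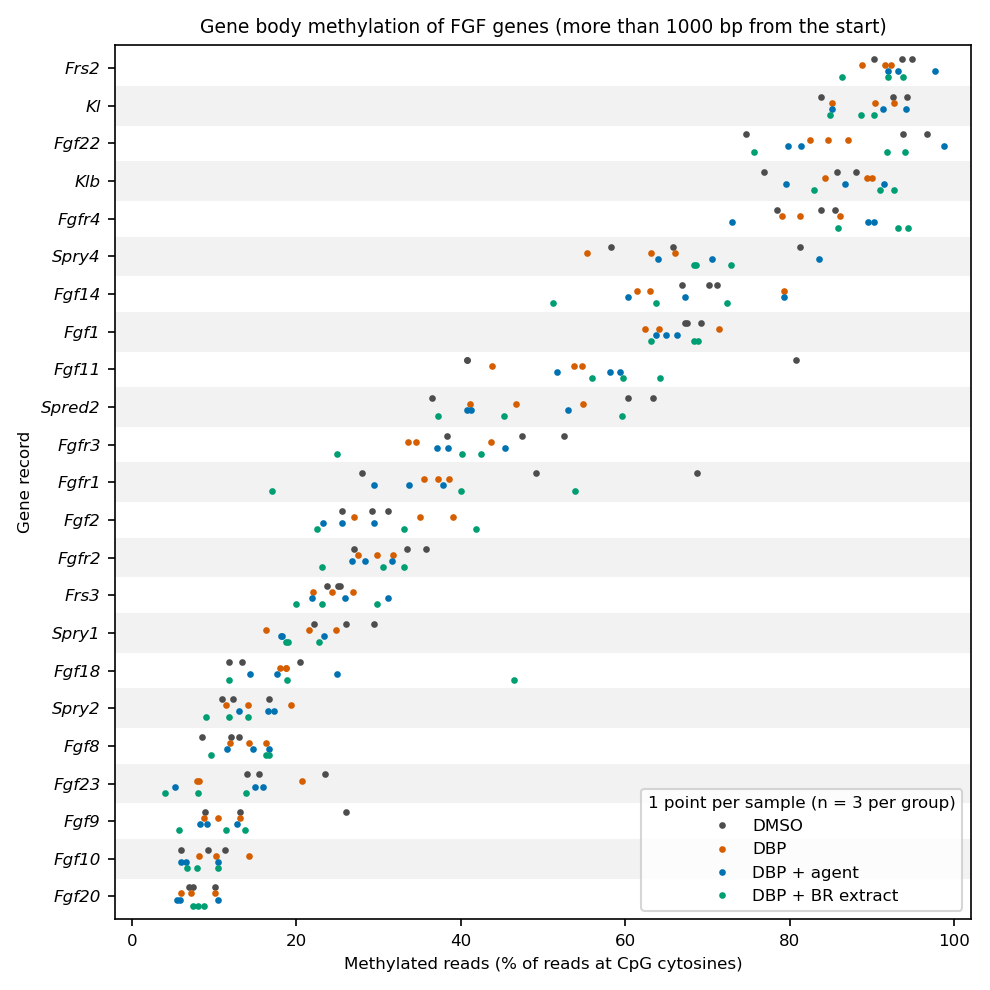
Gene body methylation level (percent of reads at CpG cytosines, horizontal axis) of the 23 gene records with 20 reads in all 12 samples, 1 point per sample, colored by group and ordered by mean. Rows run from Fgf20, with a mean of 7.81%, to Frs2, with a mean of 92.2%, and within most rows the groups overlap. The Fgf20 record body includes the start of its first-listed transcript.

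Methylation was low around the start and highest beyond 10000 bp in all groups. Over the 33 genes, counted from the first-listed transcript, it was 7.58% ± 1.5 (SD over 12 samples) in the 200 bp upstream and 6.94% ± 1.70 in the 200 bp downstream, 14.2% ± 3.36 at 1000 to 1999 bp and 72.5% ± 1.74 beyond 10000 bp. Over all protein-coding genes these values were 6.58%, 6.66%, 22.2% and 66%. Between 5000 and 9999 bp the FGF genes stood at 29% ± 4.03 and all genes at 58.5% ± 2.39. Reads were pooled over genes here, so the genes with most reads weigh most. In DMSO the 500 bp ending 500 bp upstream varied most, with a SD of 11.3 points, since 1 sample reached 24.3%, and no sample had fewer than 115 reads there.

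**Figure D3:**
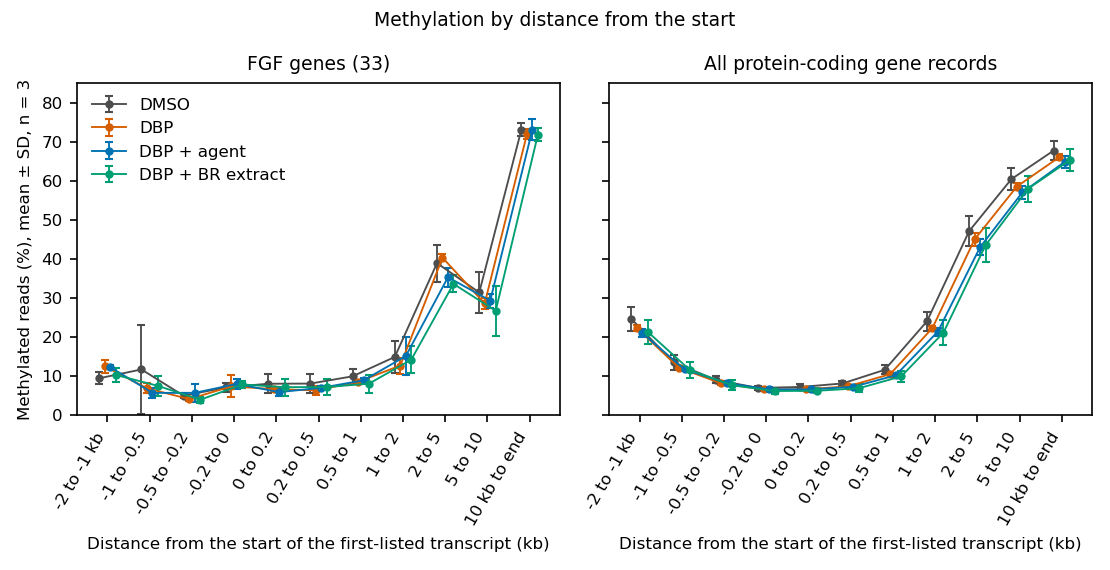
Methylation level (mean ± SD of 3 samples per group, vertical axis) by distance from the start of the first-listed transcript (horizontal axis), for the 33 FGF genes and for all protein-coding gene records. The 4 groups lie close to each other in most intervals, and between 5000 and 9999 bp the FGF genes are at 29% and all genes at 58.5%.

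Among ligand bodies, Fgf8 was at 8.59%, 12.1% and 13% in DMSO, 14.2%, 11.9% and 16.3% in DBP, 16.7%, 11.6% and 14.7% in DBP plus agent, and 16.7%, 9.61% and 16.3% in DBP plus BR extract. Fgf23, the phosphate-regulating hormone, was at 23.5%, 14% and 15.5% in DMSO, 7.91%, 20.7% and 8.19% in DBP, 15%, 15.9% and 5.22% in DBP plus agent, and 4.04%, 8.1% and 13.9% in DBP plus BR extract. Fgf2, basic FGF, was at 31.1%, 29.2% and 25.6% in DMSO, 39.1%, 35.1% and 27% in DBP, 23.2%, 29.4% and 25.6% in DBP plus agent, and 22.5%, 41.8% and 33.1% in DBP plus BR extract, over a record that also holds Bbs12, Cetn4 and Nudt6 or parts of them. In these 3 genes the ranges of the groups overlapped. Over the body of its first-listed transcript Fgf2 was above 50% in every sample. Fgf1 was among the steadiest, at 62.4% to 71.4%.

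Fgfr4 had the smallest p of the 23 bodies in any comparison. Its levels were 85.5%, 78.5% and 83.8% in DMSO, 86.1%, 79.1% and 81.2% in DBP, 90.3%, 89.5% and 73% in DBP plus agent, and 94.4%, 93.1% and 85.9% in DBP plus BR extract. Of the DBP plus BR extract samples 2 lay above all DBP samples, and the other, at 85.9%, was just under the highest DBP sample. Means were 91.1% ± 4.6 and 82.1% ± 3.59 (SD, n = 3), a log2 odds ratio of 1.25 with p of 0.0236 and adjusted p of 1 by edgeR. Depth goes with this comparison, with 158 to 191 reads in DBP and 494 to 824 in DBP plus BR extract. At the 7 cytosines read in all 12 samples the difference kept its sign (p of 0.041). In the body of Fgfr3 the levels were 38.3%, 52.6% and 47.5% in DMSO, 33.6%, 34.6% and 43.7% in DBP, 38.4%, 37.1% and 45.4% in DBP plus agent, and 24.9%, 42.5% and 40.1% in DBP plus BR extract. DBP was lower than DMSO by 8.85 points on average, with overlapping samples (p of 0.113, adjusted p of 0.998 by edgeR). With each cytosine read in all 12 samples weighted equally, the DMSO samples were at 26.9%, 34.7% and 27.2% and the DBP samples at 30%, 29.7% and 33%, and the sign reversed. Without DMSO sample 2 the pooled log2 odds ratio went from -0.53 to -0.34 (p of 0.351 by edgeR).

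Of the adaptors, the body of Frs2 was at 93.6%, 90.2% and 94.8% in DMSO, 88.8%, 91.6% and 92.3% in DBP, 92%, 93.2% and 97.6% in DBP plus agent, and 86.4%, 93.8% and 92% in DBP plus BR extract. It was above 86% in every sample. Among the feedback inhibitors, Spry1 was at 22.1%, 29.4% and 26% in DMSO, 21.5%, 24.8% and 16.3% in DBP, 18.1%, 18.3% and 23.4% in DBP plus agent, and 22.8%, 18.8% and 19% in DBP plus BR extract, Spry2 at 11%, 16.7% and 12.3% in DMSO, 14.1%, 11.4% and 19.4% in DBP, 17.3%, 13% and 16.6% in DBP plus agent, and 9.03%, 14.1% and 11.8% in DBP plus BR extract, and Spry4 at 81.2%, 58.3% and 65.8% in DMSO, 55.3%, 63.1% and 66.1% in DBP, 70.5%, 64% and 83.6% in DBP plus agent, and 72.8%, 68.6% and 68.3% in DBP plus BR extract. These 3 genes have records of 4.65, 4.87 and 15 kb, and whether length goes with the level of the body was not tested. Spry4 was 11.2 points higher in DBP plus agent than in DBP, the smallest p of the bodies in that comparison (0.0966, adjusted p of 1 by edgeR), but the values of both groups overlapped. Without DBP plus agent sample 3, the log2 odds ratio went from 0.77 to 0.36 (p of 0.411 by edgeR).

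No body of the 23 passed an adjusted p of 0.05 by edgeR, and no body of all 8845 did, 0% in each test. At an unadjusted p under 0.05 there were 0 of 23 across the 4 groups (406 of 8845 or 4.59%), 0 for DBP versus DMSO (327 or 3.7%), 0 for DBP plus agent versus DBP (270 or 3.05%) and 1, Fgfr4, for DBP plus BR extract versus DBP (334 or 3.78%). limma called 0 bodies as well. The logistic regression without spread between samples called 19, 4, 5 and 15 of the 23. In the same order it called 6229, 1457, 2134 and 3450 of all 8845 bodies, and whether the 23 differ from that was not tested. A p over the threshold does not show that the groups were alike.

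The result for a receptor depended on the gene model. For 9 of the 34 records the first-listed transcript starts more than 1000 bp from the start of the record. The Fgfr2 record spans 3009069 bp (chr7:137305965-140315033) because of 1 transcript model, Fgfr2-007, holds 31 other protein-coding genes, and starts 1004 bp from the start of Ctbp2. Its first-listed transcript spans 103734 bp (chr7:137306026-137409759, minus strand). Fgfr1 (chr8:26624126-26686186, plus strand) was at 28%, 68.7% and 49.2% in DMSO, 37.2%, 38.6% and 35.5% in DBP, 29.4%, 33.7% and 37.8% in DBP plus agent, and 17%, 53.9% and 40% in DBP plus BR extract over the body of the record. That body includes the unmethylated start of the first-listed transcript. Over the body of the first-listed transcript Fgfr1 was at 74.6%, 81.3% and 75.5% in DMSO, 75.5%, 82.6% and 77.9% in DBP, 83.2%, 80.2% and 76.9% in DBP plus agent, and 62.9%, 78.9% and 83.7% in DBP plus BR extract. The SD over the 12 samples was 13.3 points by the first and 5.62 points by the second. Fgf10, a mesenchymal ligand for epithelium, had no read at the start of its record, and 3.39% to 9.52% at the first-listed transcript 44908 bp downstream. Fgf2 had 0.649% to 5.8% at its first-listed transcript.

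Fgfr2, the receptor that many epithelial cells carry, was singled out after its values were seen. Over the body of its first-listed transcript the levels were 34.1%, 31.7% and 37.8% in DMSO, 39.8%, 42.4% and 44% in DBP, 48.8%, 42.8% and 61.2% in DBP plus agent, and 64.9%, 50% and 46.4% in DBP plus BR extract. All 3 DMSO samples were below all 9 others. The test across the 4 groups gave p of 0.00817 and adjusted p of 0.967 by edgeR, and DBP versus DMSO alone p of 0.161. Where each of the 26 cytosines read in all 12 samples was weighted equally, the levels were 38.9%, 49.1% and 41.5% in DMSO, 49.5%, 50.5% and 59.9% in DBP, 49.3%, 47.5% and 55.2% in DBP plus agent, and 48.3%, 44.7% and 49.5% in DBP plus BR extract. With reads pooled over those 26 cytosines the DMSO samples were again the lowest, at 29.9%, 26.9% and 31.7% (p of 0.0243 by edgeR). With equal weights they overlapped the other groups, and p across the groups was 0.0852 (adjusted p of 0.939 by limma). All 3 DBP samples were then above all 3 DMSO samples, by 10.2 points on average (p of 0.0178, adjusted p of 0.72 by limma). For DBP plus BR extract versus DBP the pooled log2 odds ratio was 0.69 (p of 0.042, adjusted p of 0.999 by edgeR), and with equal weights the difference had the other sign, -5.78 points (p of 0.142 by limma). The order of the samples therefore differed between the weightings, and the part of either in it was not tested. Of its CpGs with 5 reads in every sample, the 8 from 547 to 805 bp after the start had at most 20% in any sample, and that at 88610 bp stood at 55% to 82.4%.

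**Figure D4:**
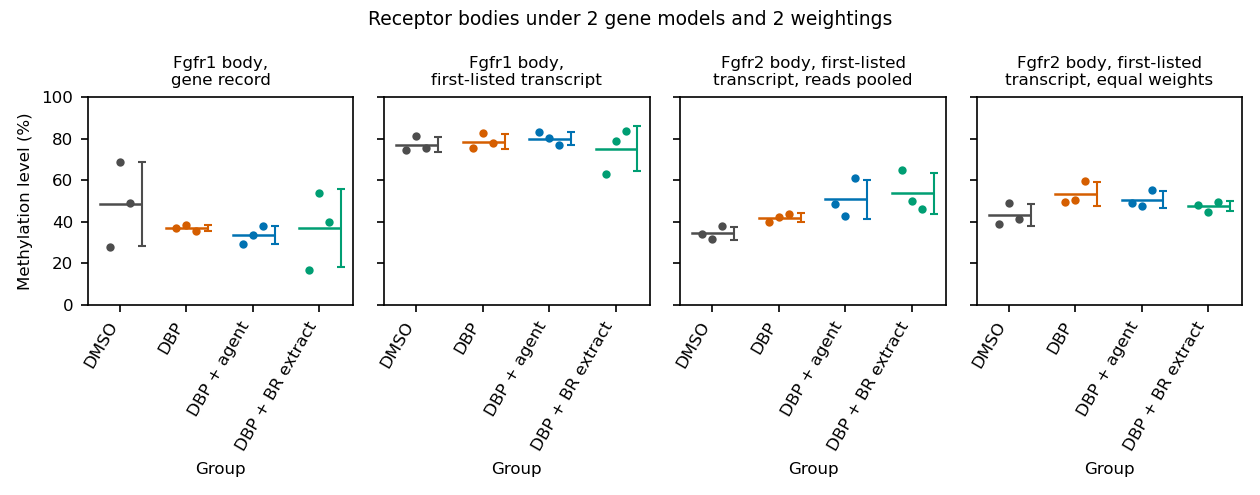
Body methylation level (percent, vertical axis) of Fgfr1 over its gene record and over its first-listed transcript, and of Fgfr2 over its first-listed transcript with reads pooled and with equal weights per cytosine. Points are samples, horizontal lines group means and error bars SD (n = 3). Fgfr1 runs from 17% to 68.7% in the first panel and from 62.9% to 83.7% in the second, and the DMSO samples of Fgfr2 lie below all others only with reads pooled.

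Most single CpGs were low in methylation. Within the windows of the first-listed transcripts 198 CpGs in 27 of the genes had 5 or more reads in all 12 samples. Of these 129 (65.2%) had a mean under 20%, 22 (11.1%) a mean over 80%, and 47 (23.7%) lay between. Spred1, with 16 such CpGs, had 15 under 20%. Fgf4 had 15 of 18 and Fgf8 18 of 22. Fgfr3 had 3 under 20% and 6 over 80% of its 13, and Spry4 had 8 of 12 in between.

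The study compared DBP with DMSO at single CpGs, so the same comparison was made here by logistic regression. That regression leaves out the spread between samples. Of 53618 CpGs with 10 or more reads in all 6 samples, 57 (0.106%) passed a q-value of 0.01 and a difference of 10 points, and none of the 269 in the windows of the FGF genes did. Of these 269, 149 lay in the long Fgfr2 record and 122 of all lay within the first-listed transcripts. At an unadjusted p under 0.05 there were 28 of the 269 (10.4%), 10 higher and 18 lower in DBP, against 5827 or 10.9% of all CpGs. Within the first-listed transcripts alone there were 19 of the 122 (15.6%), 6 higher and 13 lower in DBP, in 8 genes, and neighboring CpGs of a gene can share reads. An edgeR test with the spread between samples called 0 of all CpGs. At an unadjusted p under 0.05 by edgeR there were 4 of the 269 and 1420 of all 53618. The median absolute difference was 1.33 points at these CpGs and 1.82 at all.

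The 3 CpGs with the smallest p were in Fgfr3, Frs3 and Kl. Their surroundings are shown on the gene's strand, all 3 plus, with the CpG in capitals.
Fgfr3, chr5:34076710-34076771, coding exon, 12367 bp after the start: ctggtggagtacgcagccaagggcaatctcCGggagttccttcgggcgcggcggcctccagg
Frs3, chr17:47830373-47830434, intron, 4424 bp after the start: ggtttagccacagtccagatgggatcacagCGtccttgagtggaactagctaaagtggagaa
Kl, chr5:151785085-151785146, coding exon, 29933 bp after the start: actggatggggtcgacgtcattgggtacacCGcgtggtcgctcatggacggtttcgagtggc

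At the Fgfr3 CpG the levels were 78.1%, 71.4% and 81% in DMSO, 93.1%, 95.2% and 97.1% in DBP, 81.1%, 84.5% and 85.9% in DBP plus agent, and 63.4%, 75.5% and 73.8% in DBP plus BR extract, on 21 to 151 reads. All 3 DBP samples were above the 9 others, but the CpG was picked for its small p between DBP and DMSO. DBP exceeded DMSO by 17.9 points with p of 0.000322 and a q-value of 0.0479 by logistic regression, over the threshold of 0.01. By edgeR p was 0.0159 and the adjusted p 1. The 95% Wilson interval, which covers counting error only, was 60% to 92.3% in the highest DMSO sample and 78% to 98.1% in the lowest DBP sample. The DBP plus agent and DBP plus BR extract samples were not part of that test, and their comparison with DBP shares the DBP samples. Another Fgfr3 CpG, 6560 bp after the start, differed by 12.1 points in the same direction (q-value of 0.225). The body as a whole differed by 8.85 points in the other direction with reads pooled. With equal weights per cytosine the body differed by 1.29 points in the direction of the CpG.

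At the Frs3 CpG the levels were 65.9%, 80% and 72.2% in DMSO, 86.7%, 93.3% and 84.8% in DBP, 76.7%, 78.8% and 100% in DBP plus agent, and 67.7%, 56.6% and 73.5% in DBP plus BR extract, on 10 to 116 reads. DBP samples were above all DMSO and DBP plus BR extract samples, and DBP plus agent samples fell on both sides. The difference of DBP from DMSO was 19 points (p of 0.00178 and q-value of 0.111 by logistic regression, p of 0.0664 by edgeR). At the Kl CpG the DMSO samples were at 100% and the DBP samples at 90.2%, 100% and 100%. That difference of -4.59 points (q-value of 0.202) came from the first DBP sample alone and was 0 without it.

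**Figure D5:**
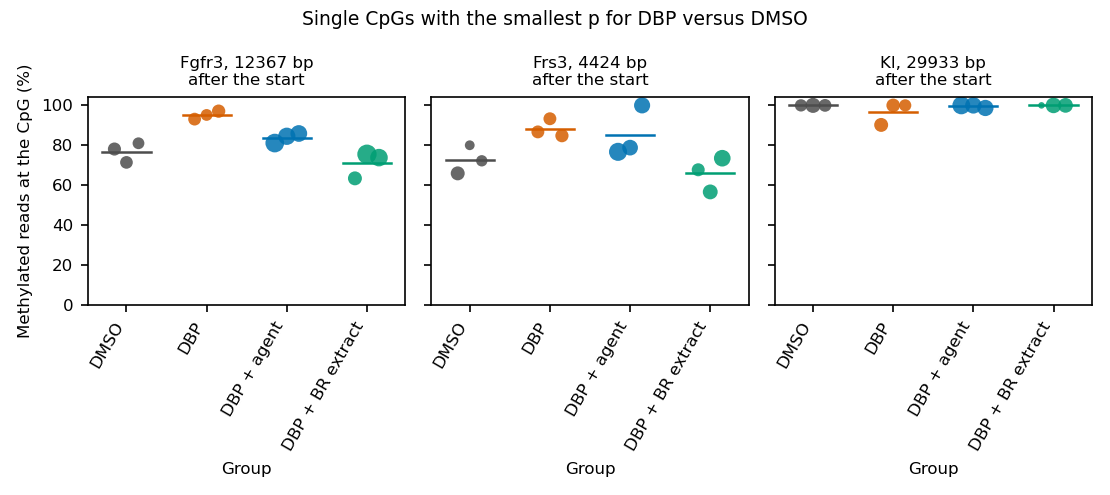
Methylation level (percent of reads, vertical axis) at the 3 CpGs of the FGF genes with the smallest p for DBP versus DMSO. Points are samples, larger with more reads, and lines are group means (n = 3). At Fgfr3 the DBP samples lie at 93.1% to 97.1% and the 9 others at 63.4% to 85.9%.

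Promoters and bodies of other genes of the pathway were also without a call. Single CpGs of these genes were not read out, and the Fgf3 site that the paper reported lies upstream of the regions tested. Of 35 such genes (further ligands, Ras, Raf, MEK and ERK genes, heparan sulfate enzymes and target genes), 33 were found by name, 27 promoters and 29 bodies could be tested, and 0 were called by edgeR in any comparison. At an unadjusted p under 0.05 there was 1 promoter across the 4 groups (Map2k2, p of 0.0107 by edgeR), 1 for DBP versus DMSO (Map2k2, 0.026), 0 for DBP plus agent versus DBP and 1 for DBP plus BR extract versus DBP (Fgf3, 0.0492), each with an adjusted p of 1, and 0 bodies in the 4 tests. In the same order of tests, the shares at that p were 3.62%, 3.03%, 2.12% and 3.85% of all promoters. Of all bodies they were 4.59%, 3.7%, 3.05% and 3.78%. Promoter levels of the 34 records with 20 reads in total ran from 2.45% to 28.7%, with 31 under 10%.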

How the data were processed

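ERRBS libraries of 12 oral tissue samples were analysed in 4 groups of 3, assigned from the sample titles. Per the labels, the authors trimmed reads with Trim Galore 0.3.3 and mapped and called them on mm9 with Bismark 0.10.1. The deposited files give, per cytosine and sample, the counts of methylated and unmethylated reads and the percent methylated, which equals their ratio, with strands apart and no coverage filter. All 5202461 positions were CpG cytosines in the mm9 genome used here.

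Counts were summed over the promoter and body of each GENCODE vM1 protein-coding gene, and regions with 20 or more reads in all 12 samples were tested. Methylated and unmethylated counts were fitted with edgeR 4.0.16 (quasi-likelihood, all 12 samples in 1 fit without a replicate block), across the 4 groups, for DBP versus DMSO, and for DBP plus agent and DBP plus BR extract versus DBP. P-values were adjusted by Benjamini-Hochberg over all regions, with a threshold of 0.05. For single CpGs, DBP and DMSO were compared by logistic regression on scaled coverage at CpGs with 10 or more reads in all 6 samples, after leaving out the top 0.1% of coverage; a call needed a q-value under 0.01 and a difference over 10 points. limma 3.58.1 (pseudocount 1), logistic regression without spread between samples, other read minimums, matched positions, a replicate block and leaving out each sample were alternatives. The scripts were tested on simulated data, with 1 spread set for all promoters and 1 for all bodies. For a change of 10 points in DBP, edgeR recovered 15 of 50 promoters and 2 of 50 bodies. For 20 points it recovered 43 and 24 of 50. It also called 4 unchanged promoters and 5 unchanged bodies. Differences of about 10 points were thus mostly missed.

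The genes and lists were chosen with earlier results of these data known. Values in every sample are given for genes among the 3 smallest p in a test and for promoters neither under 10% nor over 50% in all samples. Other genes are given by class, range and count, and the genes singled out afterwards are named as such. Same-numbered samples did not deviate together (mean correlation 0.0264 over promoters and 0.0506 over bodies), so the numbers were not taken as pairs. PCR reads carried no molecular identifiers, so intervals and limits cover counting error only.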

Additional observations from a re-analysis of the deposited data

How the results depend on the processing

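Over the 9 tests, 208 alternatives were run, and 201 of them called no FGF gene or CpG. The 7 others were all logistic regressions without the spread between samples. Of the 21 promoters these called 15 across the groups, 1 for DBP versus DMSO and 5 for DBP plus BR extract versus DBP. Of all 10508 promoters they called 6553, 392 and 2483. Of the 23 bodies they called 19 across the groups and 4 for DBP versus DMSO. For DBP plus agent and DBP plus BR extract versus DBP they called 5 and 15 bodies. Many of all 8845 bodies were called as well, with the counts given above. Whether the FGF genes differ from these shares was not tested. Among the 6 region results followed through every alternative (Spred2 in 2 comparisons, Fgf20, Fgfr3, Spry4 and Fgfr4), the sign changed in 4 alternatives. Spred2 promoter methylation in DBP plus agent versus DBP had a log2 odds ratio of -0.18 at positions with a read in all 12 samples and a difference of -0.186 points with these weighted equally. The Fgf20 promoter in DBP plus BR extract versus DBP had a log2 odds ratio of -0.18 at the first-listed transcript, and the Fgfr3 body in DBP versus DMSO a difference of 1.29 points with equal weights. Over all tests of pairs of groups, the first-listed transcript gave the other sign in 2 of 60 promoter tests (both Fgf20) and 7 of 63 body tests (Fgf14, Fgf22, Fgfr1 and Fgfr2). The causes were not tested. The first-listed transcript and the equal weights were chosen after seeing the data.

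With the replicate number as a block, 0 regions were called in the 8 region tests and 0 of the FGF CpGs, and no call of an FGF gene or CpG changed, while 61 CpGs were called over the genome in place of 57. The block holds only a shared number, since 1 of 18 same-numbered pairs correlated above 0.1 over promoters and 4 of 18 over bodies. Leaving out each sample in turn left 0 FGF genes or CpGs called in every test. The count of CpGs called over the genome was 57, and it was 25 without scaling of coverage, 36 with a minimum of 5 reads, 31 with a difference over 25 points, 0 by edgeR and 22 to 112 without single samples, lowest without DBP replicate 1 and highest without DMSO replicate 1.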

Other observations

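For Fgf22 and Kl the methylation level over the whole window, from 2000 bp upstream to the end, moved with the share of the reads that fell in the promoter. The window pools promoter and body reads, so where their levels differ it depends on this share by construction. These genes were chosen after their values were seen. For Fgf22, a ligand of the Fgf7 subfamily, the promoter held 8.65% to 96.7% of the reads of the window, and the level of the window ran from 10.1% in the sample with the highest share to 73.2%. For Kl the promoter held 24.9% to 76.8% of the reads, and the window stood at 25.6% to 75.1%, while the body alone stayed at 83.8% to 94.3%. In both genes the lowest share was in the second DMSO sample and the highest in the first DBP plus BR extract sample, the deepest library. With each cytosine read in all samples weighted equally, the median SD of the bodies of 20 records was 3.59 points in place of 5.57, and it was smaller in 12 of the 20. For the bodies of 18 first-listed transcripts it was 5.01 in place of 5.83, and smaller in 10, whereas for 16 promoters of the records it was 2.27 in place of 1.89.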
